A study of Mus musculus with 8 samples.

Results

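The comparison described here set every array of mouse CD8+ T cells treated with a PPAR agonist against the arrays treated with DMSO alone, the vehicle, and asked which transcripts the 3 agonists moved the same way. Its members are all 8 arrays of the series, 6 with an agonist and 2 with DMSO, and it was run over the 21371 transcript clusters of the array that name 1 gene. Per the labels and the design text, naive CD8+ T cells of female mice were stimulated in vitro and then cultured for 48 h with 1 agonist each, of PPARα, of PPARβ or of PPARγ, and the samples are from day 2. Each of the 4 groups held 2 arrays, 1 from each of 2 culture sets, the term used here for the 4 arrays that share a prefix in their titles. The labels do not say what the prefix marks or whether a group's arrays are of different mice, so a p-value here covers the spread among these arrays alone. All groups share the stimulation, and the sources used here give no strain, age, stimulus, compound or dose.

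PPARs are nuclear receptors that bind fatty acids and their derivatives. Each pairs with a retinoid X receptor on DNA, at direct repeats of the sequence AGGTCA, and switches on genes of lipid uptake, storage in droplets and oxidation. Activated CD8+ T cells take up and use fuel at a high rate, and PPARα and PPARβ agonists are known in many tissues for raising genes of fatty acid oxidation, while PPARγ is best known as the driver of fat cell formation. The 3 receptors share many target genes, so a pooled comparison is the direct way to ask for a common response.

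The arrays carried the transcripts of CD8+ T cells. Values are log2 RMA values, and a cluster is called here above the level limit when its mean over the 8 arrays was at least 4.888, the 40th percentile, which left 12823 clusters. All 8 measured markers of CD8+ T cells, among them Cd8a, Cd8b1, Cd3e and Thy1, lay above that limit on average. So did all 6 measured markers of CD4 and regulatory T cells. Of other cell types, 4 of 10 B cell, 2 of 7 NK cell, 4 of 12 macrophage and 4 of 10 dendritic cell markers also lay above it. The same held for 3 of 12 neutrophil and mast cell, 3 of 7 erythroid and platelet and 5 of 12 stromal, endothelial and epithelial markers. Cd79a of B cells, Csf1r of macrophages, Ncr1 of NK cells and Ly6g of neutrophils lay below the limit, while other markers counted with each lay above it. Purity was not measured, and these levels are no measure of it. Of the receptor genes, Ppara lay just above the limit, with 5.10 ± 0.08 (SD, n = 2) under DMSO and 4.98 ± 0.21 (SD, n = 6) under agonists, and Pparg lay below it, with 3.72 ± 0.11 and 3.76 ± 0.08. The gene of PPARβ shares its cluster with another gene and is not described. The measurement is of RNA from whole cultures, so fewer cells of a type and less RNA per cell cannot be told apart.

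No transcript passed the pooled test. With the culture set as a block, limma called 0 of 21371 clusters at an adjusted p under 0.05 (0.00%), the smallest adjusted p was 0.6627, and 1068 clusters had an unadjusted p under 0.05, 555 of them higher (2.60%) and 513 lower (2.40%). Without the block it also called 0, with 741 clusters at an unadjusted p under 0.05. The changes were small against their error: the median size of the pooled change was 0.117 and the median standard error 0.162 on the log2 scale. Only 6 clusters had a pooled change of at least 1 in size, and the largest of them, that of Plin2, came from 1 agonist, as described further on.

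A second reading counted clusters that all 3 agonists moved the same way in both sets. Each agonist array was set against the DMSO array of its own set, which gives 6 differences per cluster, and the 3 differences of a set share 1 DMSO array. At a size of at least 0.3 in each of the 6, 56 clusters stood higher (0.262%) and 50 stood lower (0.234%), 106 in all (0.496%). By sign alone, without a size, 1339 stood higher (6.27%) and 1433 lower (6.71%). A limit of 0.2 gave 162 and 150, and a limit of 0.5 gave 8 and 7. None of the 106 passed the pooled test. None passed limma's F test among the 3 agonists either, where their lowest adjusted p was 0.8393.

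The 2 culture sets, which share no array, were then set side by side. In set 1, 1620 clusters moved by at least 0.3 the same way under all 3 agonists, and in set 2 it was 1740. The sets had 204 such clusters in common, and 106 of these went the same way in both while 98 went opposite ways. At a limit of 0.2 the counts were 312 and 277, and at 0.5 they were 15 and 9. Across all clusters the pooled change of set 1 and that of set 2 had a Pearson correlation of 0.0329 and a Spearman rank correlation of 0.0430, a description over genes, which are not independent replicates and share the 4 arrays of each set. Above the level limit the values were 0.0449 and 0.0585. A set's pooled change had an SD of 0.271 in set 1 and 0.281 in set 2 over all clusters.

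**Figure D1:**
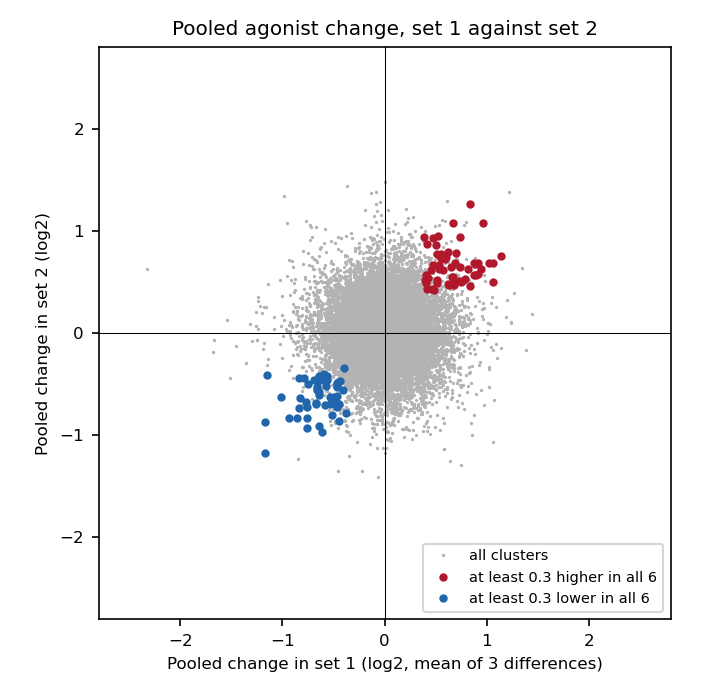
Pooled change of each of 21371 transcript clusters in culture set 1 (x axis, log2, mean of 3 agonist arrays minus the DMSO array) against that in set 2 (y axis, log2). Grey points form a round cloud with Pearson's r of 0.0329, and the 56 red and 50 blue points are the clusters at least 0.3 higher or lower in all 6 differences.

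**Figure D2:**
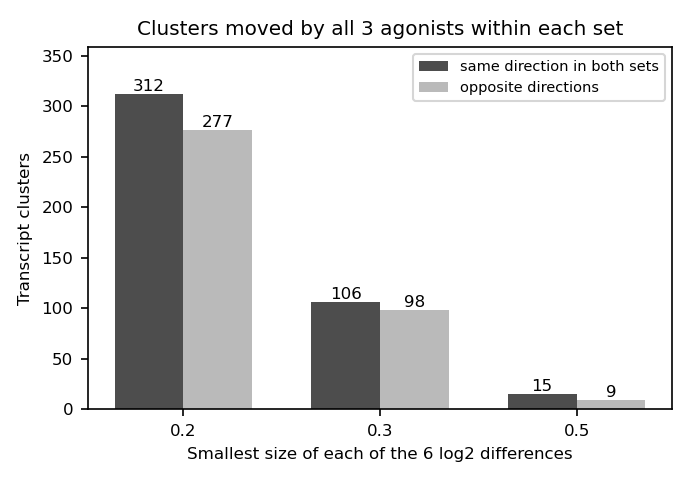
Number of transcript clusters (y axis) that all 3 agonists moved one way within each culture set, by the smallest size required of each of the 6 log2 differences (x axis). Dark bars count clusters that went the same way in both sets and light bars those that went opposite ways, and at 0.3 they stand at 106 and 98.

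Of the 98 clusters that went opposite ways, 42 stood higher in set 1 and lower in set 2, and 56 the reverse. Armcx3, which codes for a protein of the outer mitochondrial membrane, read 8.27 under DMSO in set 1 and 9.71 in set 2, while its 6 agonist arrays lay between 8.62 and 9.06. Spef2, a gene of the sperm flagellum, read 7.98 under DMSO in set 1 and 6.77 in set 2, with agonist arrays between 7.39 and 7.70. In both genes all 6 agonist arrays lay between the 2 DMSO arrays, so the change had opposite signs in the 2 sets. Both were chosen after their values were seen. A direct test of the difference of the pooled change between sets called 0 clusters with limma (0.00%), with 1045 at an unadjusted p under 0.05 (4.89%) and a smallest adjusted p of 1.0. The DMSO arrays of the 2 sets differed by at least 1 in 497 clusters (2.33%).

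The 106 clusters that moved the same way lay in the lower range of the array. Their median level was 4.75 for those higher and 4.89 for those lower, against 5.66 for all clusters, and 51 of them lay above the level limit, 26 higher (0.203%) and 25 lower (0.195%). Only 1 of the 106 had a level of 9 or more, a range that held 30.3% of all clusters. Predicted genes, receptor genes of smell and pheromones, and antigen receptor segments made up 14 of the 56 and 13 of the 50, against 16.4% of all clusters. These are counted and not named. The genes described next are those above the level limit with the largest smallest difference, 12 in each direction, and since the same values chose them, their size is a description.

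Promoters are printed for the 4 of these genes that code for enzymes of glycogen, fatty acid, pyruvate and coenzyme A metabolism, since a shared PPAR response would be looked for first in such genes. Each is the 250 bases before the RefSeq gene start, 5′ to 3′ along the gene's strand, from RefSeq on GRCm38.p6. Capitals mark the nuclear receptor half-site AGGTCA, or its reverse complement.
Pygl: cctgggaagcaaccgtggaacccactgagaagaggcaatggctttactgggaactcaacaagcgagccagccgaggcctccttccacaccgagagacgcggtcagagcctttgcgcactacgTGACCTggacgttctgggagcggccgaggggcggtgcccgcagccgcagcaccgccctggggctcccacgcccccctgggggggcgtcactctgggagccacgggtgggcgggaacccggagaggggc
Acsl1: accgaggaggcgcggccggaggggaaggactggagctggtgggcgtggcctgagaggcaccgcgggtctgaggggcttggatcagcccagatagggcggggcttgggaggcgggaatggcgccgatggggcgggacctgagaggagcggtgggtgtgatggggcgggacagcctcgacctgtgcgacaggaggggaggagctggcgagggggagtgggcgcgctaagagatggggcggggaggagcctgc
Pdp2: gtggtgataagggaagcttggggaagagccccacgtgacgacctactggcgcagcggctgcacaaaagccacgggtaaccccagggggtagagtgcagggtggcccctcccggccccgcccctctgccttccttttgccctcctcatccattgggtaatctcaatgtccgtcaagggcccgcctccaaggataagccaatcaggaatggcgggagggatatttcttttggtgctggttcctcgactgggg
Ppcs: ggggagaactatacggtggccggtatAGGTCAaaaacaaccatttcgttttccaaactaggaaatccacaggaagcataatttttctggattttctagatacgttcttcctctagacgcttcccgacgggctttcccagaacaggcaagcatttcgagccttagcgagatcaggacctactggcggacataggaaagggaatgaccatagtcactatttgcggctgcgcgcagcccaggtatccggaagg
These are, in order, chr12:70227684-70227933 on the minus strand, chr8:46470787-46471036 on the plus strand, chr8:104591222-104591471 on the plus strand and chr4:119422421-119422670 on the minus strand. The RefSeq start of Pygl lies inside the cluster that the array's annotation gives for the gene, so the Pygl window does too. The half-site stood in Pygl on the opposite strand, at position -128 from the gene start, and in Ppcs on the gene's strand, at -224, and these letters are not in the windows of Acsl1 and Pdp2. Searched on both strands, AGGTCA was in 14.0% of 32851 promoter windows of the same length. By gene, it was in 3 of the 40 genes with a promoter entry that stood at least 0.3 higher in all 6 differences (7.50%), in 5 of the 38 that stood lower (13.2%), and in 15.8% of all 27025 genes. The full repeat AGGTCANAGGTCA, which contains the half-site, was in 0.0335% of windows and in none of these 40 or 38 genes. It was in only 11 of all 27025 genes (0.0407%), so its absence from sets this small says nothing about them. Only these exact letters within 250 bases were searched.

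Among genes of metabolism, Pygl stood higher under every agonist. It codes for the liver form of glycogen phosphorylase, which releases glucose units from glycogen, and its cluster spans chr12:70190811-70231488 on mm10. In set 1 it read 6.74 with DMSO and 7.82, 7.70 and 8.13 with the agonists of PPARα, PPARβ and PPARγ, the order kept from here on. In set 2 it read 8.43 with DMSO and 9.40, 9.34 and 8.84. The DMSO arrays lay far apart, and that of set 2 lay above all 3 agonist arrays of set 1, so the groups overlap although each agonist array lay above its own DMSO array. The pooled change was 0.95 ± 0.19 (SE) on the log2 scale, 1.93-fold, with a limma adjusted p of 0.7143.

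Acsl1 codes for a long-chain acyl-CoA synthetase that primes fatty acids for use, and it is a PPAR target in liver and fat. It lies at chr8:46471041-46536051 and stood lower, not higher. Set 1 read 6.96 with DMSO and 6.47, 6.49 and 6.53 with the agonists, and set 2 read 6.35 with DMSO and 5.63, 5.66 and 5.60. The 3 agonist arrays of a set lay within a narrow range of each other, below the DMSO array of the set, and the groups overlap only because set 2 lay lower as a whole. The pooled change was -0.59 ± 0.12 (SE), with a limma adjusted p of 0.7143.

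Pdp2 codes for a phosphatase that switches pyruvate dehydrogenase on, opposite to the kinase Pdk4. Its arrays read 6.67, 6.27, 6.02 and 6.11 in set 1 and 6.45, 5.53, 6.05 and 5.89 in set 2, each time with DMSO first. All 6 agonist arrays lay below both DMSO arrays, and the pooled change was -0.58 ± 0.16 (SE) with a limma adjusted p of 0.9524. Pdk4 itself, a classic PPAR target, lay below the level limit, with 3.57 ± 0.04 (SD, n = 2) under DMSO and 3.57 ± 0.25 (SD, n = 6) under agonists.

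Ppcs codes for an enzyme of coenzyme A synthesis. It read 7.52 with DMSO and 6.69, 7.06 and 6.78 with agonists in set 1, and 7.21 with DMSO and 6.38, 6.62 and 6.57 in set 2. The agonist arrays all lay below both DMSO arrays, with a pooled change of -0.68 ± 0.14 (SE) and a limma adjusted p of 0.8824. Over all clusters, 2.70% had all 6 agonist arrays below both DMSO arrays and 2.92% had all 6 above. Car14, a membrane-bound carbonic anhydrase, stood higher, with a pooled change of 0.55 ± 0.12 (SE). Nudt22, a Nudix hydrolase, stood lower, with -0.62 ± 0.16 (SE). Neither passed the test, each with a limma adjusted p of 0.9524.

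Among regulators of transcription, 3 stood lower. Id1, a helix-loop-helix protein that keeps its partners off DNA and is a target of BMP signalling, lies at chr2:152736251-152737410. It read 6.25 with DMSO and 5.70, 5.59 and 5.64 with agonists in set 1, and 6.41 with DMSO and 5.38, 5.51 and 5.42 in set 2. Every agonist array lay below both DMSO arrays by more than the agonist arrays of a set differed among themselves. The pooled change was -0.79 ± 0.13 (SE), a level 1.73-fold lower, and at 0.6627 its limma adjusted p was the smallest reached by any cluster, shared with several others.

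Hey1, a repressor that Notch signalling induces, read 6.65, 6.001, 5.94 and 5.65 in set 1 and 6.47, 6.002, 6.11 and 5.96 in set 2. Pknox2, a homeodomain factor, read 5.62, 5.10, 4.93 and 4.92 in set 1 and 5.70, 4.90, 4.68 and 4.77 in set 2. In both genes the 2 DMSO arrays lay close together and above every agonist array. The pooled changes were -0.62 ± 0.14 (SE) for Hey1, with a limma adjusted p of 0.9524, and -0.78 ± 0.13 (SE) for Pknox2, with 0.6627.

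Of genes of membrane traffic and the cytoskeleton, Tpd52 stood higher. It codes for an adaptor of vesicle traffic and lies at chr3:8928626-9004723. It read 7.80 with DMSO and 8.73, 8.62 and 8.90 with agonists in set 1, and 8.50 with DMSO and 9.05, 9.35 and 8.99 in set 2. All 6 agonist arrays lay above both DMSO arrays, and those of set 1 came close to the DMSO array of set 2. The pooled change was 0.78 ± 0.15 (SE), with a limma adjusted p of 0.7132. Myo9a, an unconventional myosin, read 6.35, 6.73, 8.26 and 7.25 in set 1 and 7.35, 7.77, 7.87 and 7.91 in set 2, so that its groups overlap and 1 array, PPARβ in set 1, stood highest.

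The other genes that stood higher were Mkrn3, an imprinted ubiquitin ligase, Pik3c2g, a lipid kinase, Tph2, the tryptophan hydroxylase of nerve cells, Sh3rf2, Nat8f1, Fra10ac1, Elp6, a subunit of the Elongator complex that modifies tRNA, and Diras1, a small GTPase of the Ras family. Their pooled changes ran from 0.42 in Fra10ac1 to 0.78 in Sh3rf2. Fra10ac1 was the only one of the 106 at a level of 9 or more, with 8.99 ± 0.07 (SD, n = 2) under DMSO and 9.41 ± 0.07 (SD, n = 6) under agonists. Mkrn3 read 4.36 with DMSO and 5.29, 5.33 and 5.17 with agonists in set 1, and 4.91 with DMSO and 5.44, 5.44 and 5.55 in set 2, close to the level limit. Its 6 agonist arrays lay within a narrow range, above both DMSO arrays, with a limma adjusted p of 0.6627.

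The other genes that stood lower were Caskin2, a scaffold protein, Aste1, Rnft2, Cdip1, a target of p53 that promotes cell death, and Fndc7. Their pooled changes ran from -0.84 in Caskin2 to -0.45 in Fndc7. Aste1 had the least spread, with 8.84 ± 0.05 (SD, n = 2) under DMSO and 8.30 ± 0.07 (SD, n = 6) under agonists, and a limma adjusted p of 0.9524. Of the 12 genes higher and the 12 lower, all but Pygl, Myo9a, Acsl1 and Rnft2 had every agonist array beyond both DMSO arrays, which their choice by the size of the 6 differences favours.

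**Figure D3:**
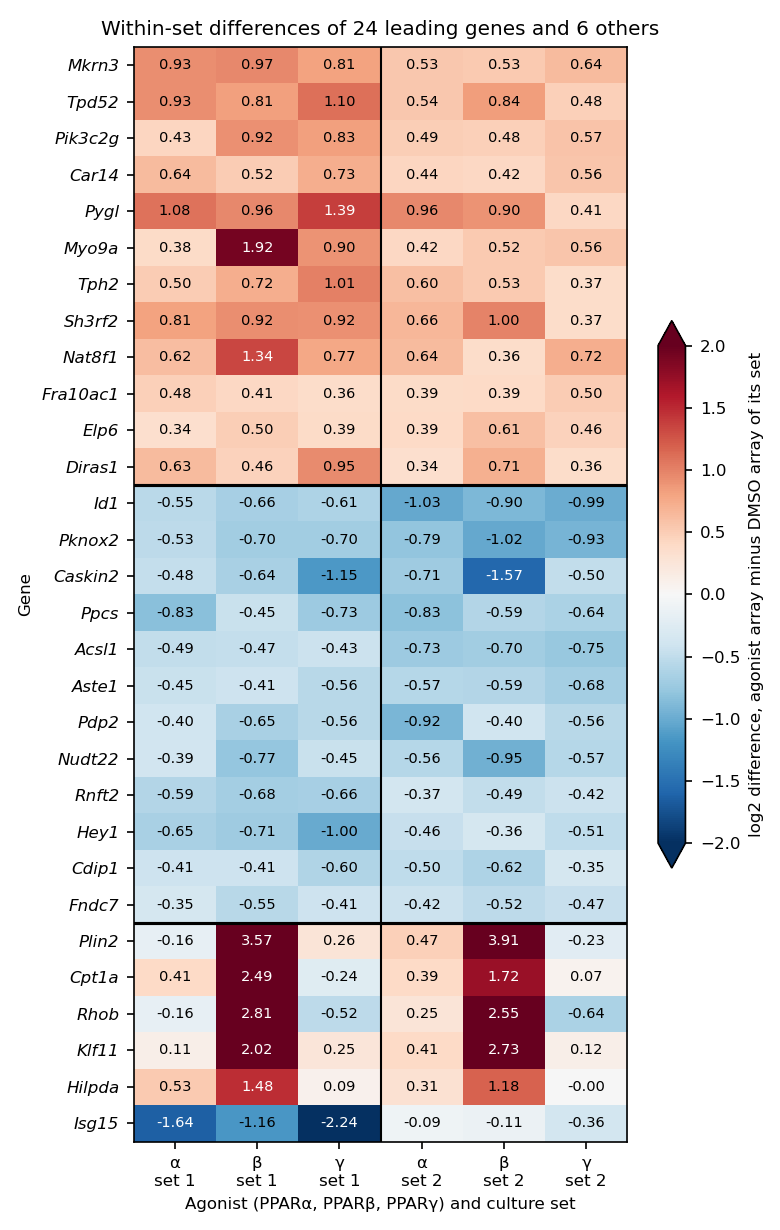
Log2 difference of each agonist array from the DMSO array of its culture set (columns, 3 agonists in 2 sets) for the 12 genes higher, the 12 lower and 6 other named genes (rows), with red higher and blue lower than DMSO and colours saturating at 2. The upper rows have 1 sign throughout, while Plin2, Cpt1a, Rhob, Klf11 and Hilpda are strongest in the 2 PPARβ columns.

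**Figure D4:**
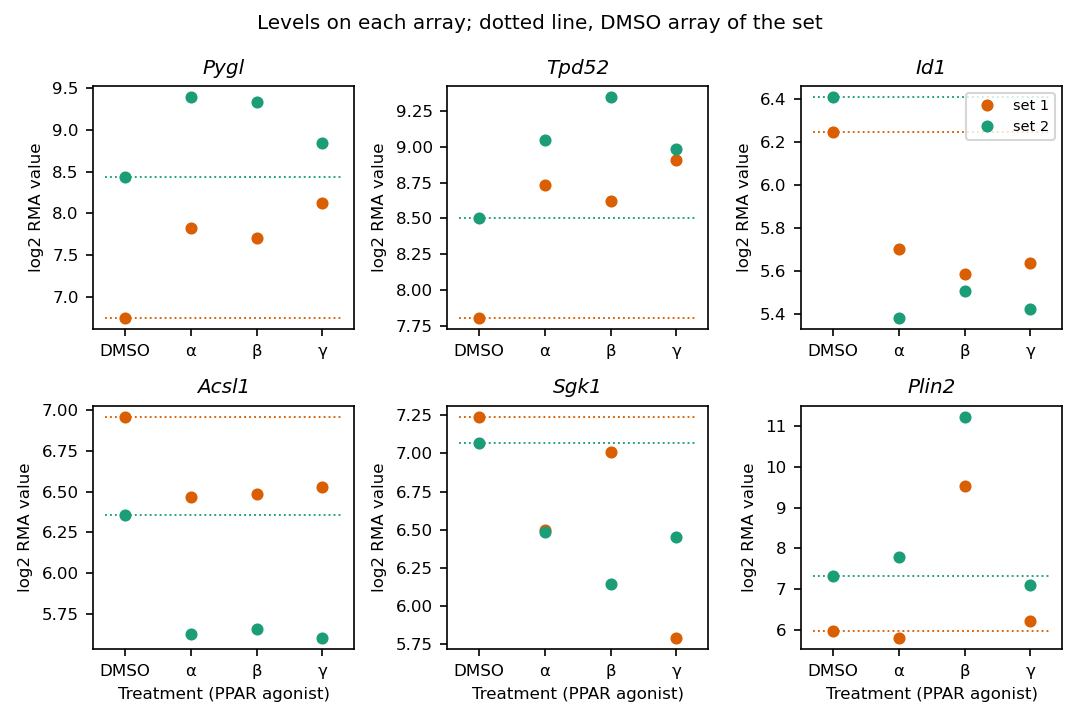
Log2 RMA value (y axis) of 6 genes on each of the 8 arrays by treatment (x axis), with culture set 1 in orange, set 2 in green and a dotted line at the DMSO array of each set. Pygl and Acsl1 keep 1 direction within each set while their sets lie apart, and Plin2 leaves the DMSO line by over 3 only under the PPARβ agonist.

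Genes that PPARs are known to raise did not move together. The list of PPAR lipid targets had 43 measured genes with a median pooled change of 0.05, beside -0.0021 over all clusters, and 0 passed the test. By sign of all 6 differences, 3 stood higher (Klf11, Angptl4 and Hadhb) and 4 lower (Acsl1, Hadha, Plin5 and Adipoq), and the other members had mixed signs. These shares, 6.98% and 9.30%, lie near the 6.27% and 6.71% of all clusters, and quantile normalization gave 4 higher and 3 lower. Angptl4, a secreted inhibitor of lipoprotein lipase and a common PPAR target, read 7.83 with DMSO and 7.91, 7.99 and 7.94 with agonists in set 1, and 7.34 with DMSO and 7.80, 8.12 and 7.58 in set 2. The set 1 DMSO array lay above 2 agonist arrays of set 2, and the pooled change was 0.31 ± 0.16 (SE) with a limma adjusted p of 0.9652.

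Mitochondrial fatty acid oxidation had the highest median of the 41 lists, 0.14 over 22 measured genes, 18 of them above 0. The median was 0.20 in set 1 and 0.07 in set 2. By agonist it was 0.27 and 0.15 under PPARβ in the 2 sets, 0.08 and 0.04 under PPARα, and 0.03 and -0.07 under PPARγ. In all 6 differences only Hadhb stood higher and only Hadha lower (4.55% each, beside 6.27% and 6.71% of all clusters). They are the 2 subunits of 1 enzyme, the mitochondrial trifunctional protein. Hadhb had a pooled change of 0.19 ± 0.13 (SE) and Hadha of -0.13 ± 0.12 (SE), and their limma adjusted p-values were 0.9712 and 0.9846. Hadha lost its common sign after quantile normalization.

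The largest pooled changes in these lists belonged to 1 agonist. Plin2, which coats lipid droplets, read 5.96 with DMSO and 5.80, 9.53 and 6.22 with agonists in set 1, and 7.32 with DMSO and 7.79, 11.23 and 7.09 in set 2. Only the PPARβ arrays stood apart from DMSO. Its mean difference from DMSO was 3.74 under PPARβ, 0.15 under PPARα and 0.01 under PPARγ, so that the pooled change of 1.30 ± 1.13 (SE) had a limma adjusted p of 0.9831. The difference among the agonists was past the threshold in limma's F test for 2 clusters of 21371 (0.00936%), Plin2 and the small GTPase Rhob, both with an adjusted p of 0.0156. The same test called 0 clusters when either DMSO array, either PPARβ array or the PPARγ array of set 2 was left out, and 1 without the block.

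Rhob differed from DMSO by 2.68 under PPARβ, 0.05 under PPARα and -0.58 under PPARγ. Klf11, a zinc finger factor that PPARs induce, differed by 2.38, 0.26 and 0.18 in the same order, with an F test adjusted p of 0.1431 in limma. Cpt1a, which controls entry of fatty acids into mitochondria, differed by 2.11, 0.40 and -0.09, with 0.4655 in the same limma test. Hilpda, a droplet protein that blocks lipolysis, differed by 1.33, 0.42 and 0.04, with 0.6819 in limma's F test. The last 3 did not pass that test, and a p above the threshold does not show that the agonists act alike on them.

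Across all lists, genes stood lower in all 6 differences more often than higher. The 41 lists held 761 measured genes, of which 32 stood higher (4.20%) and 68 lower (8.94%), beside 5.29% and 7.47% of all clusters above the level limit. With quantile normalization the lists gave 42 higher and 52 lower, and with arrays centred on their medians 25 and 71. The share higher among list genes of 1 sign was 32.0% as deposited, 44.7% after quantile normalization and 26.0% after centring. That share moved with the scaling beyond the lists too. In the same order it was 41.4%, 49.5% and 33.4% above the level limit, and 48.3%, 49.8% and 40.9% over all clusters. None passed the test. At an unadjusted p under 0.05 in limma's pooled test there were 10 list genes higher and 16 lower. These shares, 1.31% and 2.1%, lie below the 2.60% and 2.40% of all clusters. List medians ran from -0.17 to 0.14. Of the 41 lists, 29 had a median below 0 and 12 above, but the signs of S phase, G2 and mitosis, glucocorticoid-induced and histone genes turned with centring, and those of inhibitory receptors, hypoxia, peroxisomal, MYC and ribosome, and antigen presentation genes turned with quantile normalization.

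Interferon response genes had the lowest list median, -0.17 over 44 measured genes, with 34 below 0. By set it was -0.30 in set 1 and -0.01 in set 2. Under PPARα it was -0.57 and -0.09 in the 2 sets, under PPARγ -0.51 and 0.01, and under PPARβ 0.16 and 0.18. Isg15, a ubiquitin-like protein that interferon induces, read 7.9985 with DMSO and 6.36, 6.84 and 5.76 with agonists in set 1, and 6.12 with DMSO and 6.03, 6.01 and 5.76 in set 2. The DMSO array of set 1 stood above the other 7 arrays, and the pooled change was -1.68 in set 1 and -0.19 in set 2. Over both sets it was -0.93 ± 0.34 (SE) with a limma adjusted p of 0.9524. In all 6 differences 5 genes of the list stood lower, Isg15, Ddx58, Cmpk2, Parp14 and Epsti1, and 1 stood higher, Ifi27. These shares were 11.4% lower and 2.27% higher, beside 6.71% and 6.27% of all clusters. With centring 6 stood lower and 0 higher, and with quantile normalization 3 stood lower and 1 higher.

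Genes of T cell function showed scattered changes. Of 30 chemokine and homing genes 4 stood lower in all 6 differences (Ccl4, Ccr6, Selplg and Sgk1) and none higher. The share lower was 13.3%, beside 6.71% of all clusters, and with quantile normalization 3 stood lower. The median of the chemokine and homing list was -0.01. Sgk1, a kinase that glucocorticoids induce and that acts on ion transport and T cell fate, read 7.24 with DMSO and 6.50, 7.01 and 5.79 with agonists in set 1, and 7.07 with DMSO and 6.48, 6.15 and 6.45 in set 2. All 6 agonist arrays lay below both DMSO arrays, with PPARβ of set 1 close to them. Its pooled change was -0.76 ± 0.26 (SE), with a limma adjusted p of 0.9524.

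Ccl4, a chemokine that effector T cells release, had a pooled change of -0.45 ± 0.19 (SE), and Ccr6, a homing receptor, of -0.43 ± 0.14 (SE). For Ccr6 the sets lay far apart, with 8.05 under DMSO in set 1 and 6.07 in set 2. Among cytokines, Osm stood lower, with 8.96 ± 0.02 (SD, n = 2) under DMSO and 8.54 ± 0.14 (SD, n = 6) under agonists, all 6 agonist arrays below both DMSO arrays. Tnfsf11, which codes for RANK ligand, had a pooled change of -0.35 ± 0.13 (SE). These 4 genes had limma adjusted p-values of 0.9524 for Ccr6, Osm and Tnfsf11 and 0.9652 for Ccl4.

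Killing and effector genes kept no common direction. Of 21 measured effector genes, Klrk1 stood higher in all 6 differences and Ccl4, Serpinb9 and Gzmc lower. Serpinb9 did so only without centring, and Gzmc lay below the level limit. These shares were 4.76% higher and 14.3% lower, beside 6.27% and 6.71% of all clusters. Gzmb, a granule protease that kills target cells, read 14.66 ± 0.60 (SD, n = 2) under DMSO and 14.70 ± 0.43 (SD, n = 6) under agonists. Ifng read 11.54 with DMSO and 10.85, 12.12 and 12.80 with agonists in set 1, and 7.42 with DMSO and 8.18, 8.71 and 8.08 in set 2. The sets differed by far more than any agonist from DMSO, and the pooled change was 0.64 ± 0.42 (SE) with a limma adjusted p of 0.9712. Eomes, a transcription factor of effector and memory cells, had a pooled change of -0.26 ± 0.14 (SE), and Klrk1, the receptor NKG2D, of 0.31 ± 0.15 (SE).

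Survival and antioxidant genes were looked at next. Of 24 genes of the BCL2 family and p53 targets, 4 stood lower in all 6 differences and none higher. These were the survival genes Bcl2 and Bcl2l1, the death gene Bax and the p53 inhibitor Mdm2. The share lower was 16.7%, beside 6.71% of all clusters, and with quantile normalization 4 stood lower and 1 higher. Bcl2 read 15.44 with DMSO and 15.07, 15.36 and 15.38 with agonists in set 1, and 15.60 with DMSO and 15.27, 15.35 and 15.36 in set 2. Its 6 agonist arrays lay below both DMSO arrays, some of them narrowly, and the pooled change was -0.22 ± 0.13 (SE) with a limma adjusted p of 0.9652. Of 22 antioxidant genes 6 stood lower (Nfe2l2, Nqo1, Txnrd1, Gsr, Sod2 and Txn2) and 1 higher (Prdx1), with a median of -0.03. That is 27.3% lower and 4.55% higher, beside 6.71% and 6.27% of all clusters, and the 6 lower became 4 with centring and 5 with quantile normalization. Nfe2l2, the factor that switches on many of the others, had a pooled change of -0.38, and Prdx1 lost its common sign when arrays were centred.

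Sterol, peroxisome and glucocorticoid genes were mixed as well. Of 23 genes of cholesterol synthesis, 4 stood lower in all 6 differences, among them Sqle, which makes squalene epoxide, with -0.22 ± 0.12 (SE). The 4 lower and 1 higher (17.4% and 4.35%, beside 6.71% and 6.27% of all clusters) became 3 and 3 with quantile normalization. In the same pathway Hsd17b7 stood higher, with 0.39 ± 0.14 (SE) and a limma adjusted p of 0.9524. Of 27 peroxisomal genes, Hsd17b4 and Pex6 stood lower (7.41%), with -0.32 ± 0.14 (SE) and -0.33 ± 0.13 (SE). Pex7 stood higher (3.70%), with 0.21 ± 0.13 (SE), though only without centring. Of 12 glucocorticoid-induced genes 3 stood higher and 2 lower (25.0% and 16.7%). Together 41.7% had 1 sign, the highest share of the 41 lists, beside 13.0% of all clusters. With centring 2 stood higher and 1 lower. Klf9 was higher, with 5.97 ± 0.07 (SD, n = 2) under DMSO and 6.47 ± 0.21 (SD, n = 6) under agonists, in the opposite direction to Sgk1. The receptors and co-regulators of PPARs had no member of 17 with 1 sign in all 6 differences.

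**Figure D5:**
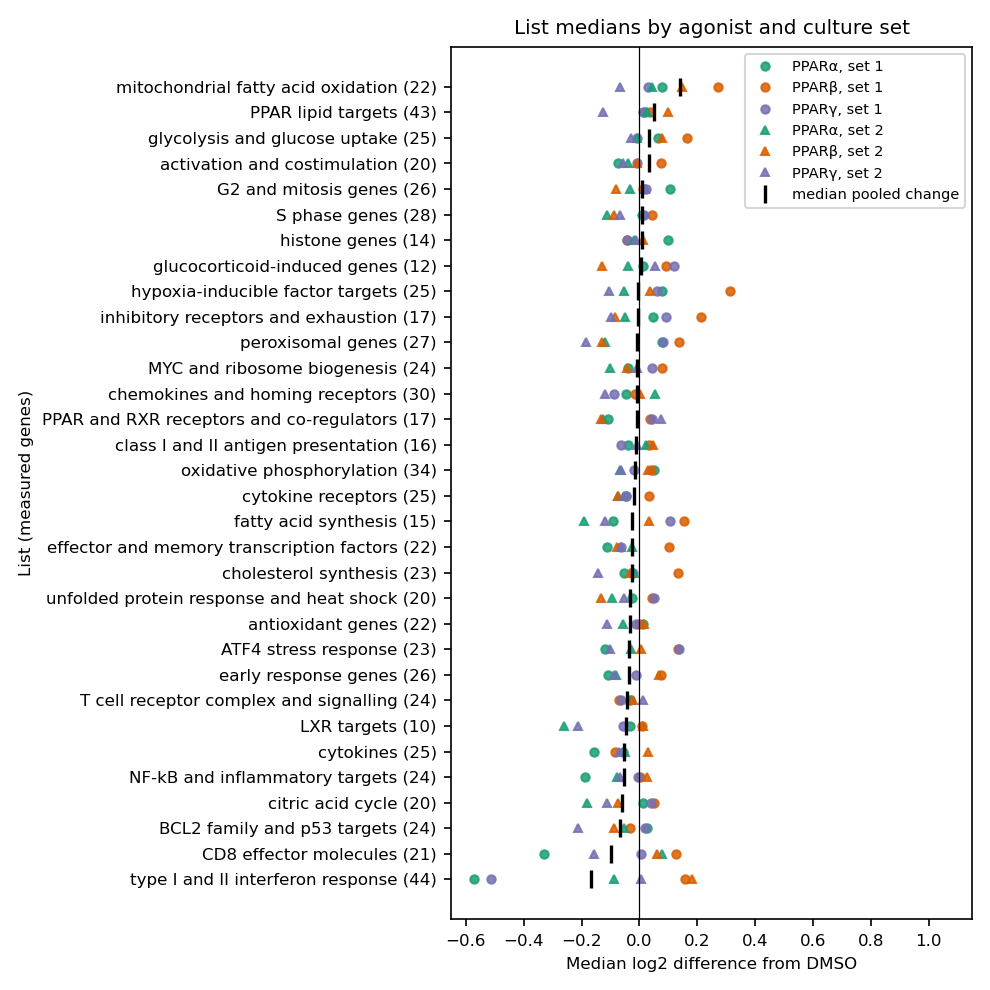
Median log2 difference from DMSO (x axis) over the measured genes of each of 32 pathway lists (rows), by agonist (colour) and culture set (circle for set 1, triangle for set 2), with a black tick at the median pooled change. Most points lie near 0, and interferon response genes spread from -0.57 under PPARα in set 1 to 0.18 under PPARβ in set 2.

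Over the 8 marker lists of other cell types, 7 of 76 measured genes stood higher in all 6 differences (9.21%) and 5 stood lower (6.58%), 15.8% in all beside 13.0% of all clusters. The dendritic cell list had 2 higher, Flt3 and Clec9a, both below the level limit, and the B cell and NK cell lists had 1 in each direction. Among 12 macrophage markers Cd68 stood lower in all 6 differences, with 8.35 ± 0.30 (SD, n = 2) under DMSO and 7.95 ± 0.11 (SD, n = 6) under agonists, while Csf1r and C1qa lay below the level limit. Kit stood lower, with a pooled change of -0.46 ± 0.23 (SE), in a list of 12 neutrophil and mast cell markers with a median of -0.04, where Camp also stood lower and Cpa3 higher, both below the level limit. Of the 41 lists, only the 12 stromal, endothelial and epithelial markers (the last Krt8 and Epcam) had a median of 1 sign in all 6 differences. That median ran from 0.04 under PPARγ in set 1 to 0.23 under PPARα in set 2, and the pooled median was 0.14. The summed level of that list was 58.73 and 58.79 on the DMSO arrays and 59.00 to 61.20 on the agonist arrays, and 5 of its 12 genes lay above the level limit. Col1a1, a collagen chain, had a pooled change of 0.46 ± 0.16 (SE) with a limma adjusted p of 0.9524. The part of such cells in any change described here was not tested.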

How the data were processed

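Per the labels, biotin-labelled cDNA from total RNA was hybridised to Clariom S Mouse arrays, and the authors deposited log2 RMA values and a linear intensity per cluster, which carries the same numbers (largest log2 difference 1.5e-06) and was not tested. The deposited matrix differed by at most 5.0e-07. RMA removes a change shared by most transcripts. Of 22206 clusters, 832 naming several genes and 3 naming none were left out, and 20395 of the rest were matched to RefSeq symbols. Coordinates are those of the file's mm10 annotation.

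The pooled test was limma 3.58.1 in R 4.3.3, as 2 levels plus culture set, two-sided, with Benjamini-Hochberg adjustment over all clusters and a threshold of 0.05. The differences between sets correlated at 0.330 to 0.371 between any 2 groups, so the title prefix was taken to pair the arrays. The F test used a fit of 4 group means. The number of arrays limits the precision. The fit was tested on simulated data.

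The comparison, the members and the gene lists were chosen with earlier results of these data known. Genes were named as up to 12 per direction with the largest smallest difference above the level limit, up to 3 members per list with 1 sign, and a few receptor, target and T cell genes; in a list's count, members with 1 sign are also named. Python 3.11.15 prepared tables and plots. Alternatives changed the block, model, level filter, scaling, cluster rule, variance model and arrays left out.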

Additional observations from a re-analysis of the deposited data

Results flagged for a closer look

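Some results differed between the agonists. Plin2 and Rhob differed among the 3 agonists in limma's F test, each with an adjusted p of 0.0156, and both stood apart from DMSO in the PPARβ arrays. The other differences were not tested: they were noted because the median of a list lay on 1 side of 0 in both arrays of one agonist and on the other side in both arrays of another.

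The mean list median was higher under PPARβ than under PPARα by 0.4990 for interferon response genes, 0.2362 for fatty acid synthesis, 0.1651 for early response genes, 0.1571 for LXR targets, 0.1475 for NF-kB targets and 0.1437 for the ATF4 stress response. It was higher under PPARβ than under PPARγ by 0.1401 for glycolysis, 0.0764 for antigen presentation and 0.0745 for oxidative phosphorylation. It was higher under PPARγ than under PPARα by 0.1769 for PPAR and RXR co-regulators, and higher under PPARα than under PPARγ by 0.1752 for neutrophil and mast cell markers. These came from 41 lists with 2 arrays per agonist, and none of these differences was tested.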

How the results depend on the processing

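The pooled fit called 0 clusters under all 22 alternatives run, which include each array left out, each agonist left out and each set alone. Without the replicate block, which the shared prefix pairs, it called 0 higher and 0 lower, with 741 clusters at an unadjusted p under 0.05, and the block changed no call of the pooled test. The filter on level left 616 at an unadjusted p under 0.05.

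Counts of clusters moved at least 0.3 the same way were 26 higher and 25 lower with the level filter. They were 144 and 146 without the PPARα agonist, 146 and 129 without PPARβ, and 148 and 129 without PPARγ. With 1 array left out they ran from 73 to 849 higher and from 75 to 891 lower, and the largest counts came without a DMSO array, where only 3 differences remain: 849 and 891, or 792 and 828. With no size required they were 1339 and 1433, at 0.2 they were 162 and 150, and at 0.5 they were 8 and 7. The F test among agonists called 1 cluster without the replicate block, 9 with a variance trend and robust fit, and 0 to 2 with 1 array left out: 1 without PPARγ of set 1, and 0 without either DMSO array, either PPARβ array or PPARγ of set 2.

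Of 2286 values of named genes under alternatives, 15 changed sign, all in genes of mixed sign, and none passed the threshold. Pparg came to -0.0893 in set 2 alone, and ran from -0.0893 without the DMSO array of set 1 to 0.1753 without that of set 2. Pdk4 came to 0.0526 without PPARα, 0.0584 without PPARβ and 0.0383 in set 2 alone, and with 1 array left out it ran from -0.1064 without PPARγ of set 2 to 0.0464 without PPARα of set 2. Gzmb came to -0.0758 without PPARβ and -0.0429 in set 1 alone, and with 1 array left out it ran from -0.0429 without the DMSO array of set 2 to 0.1209 without that of set 1. Rhob came to -0.27 without PPARβ. The causes were not tested. In genes of 1 sign throughout, leaving out arrays, agonists or a set averages differences that all share that sign. Their change could not turn in those alternatives, so the lack of sign changes there follows from that property alone. That lack says nothing about how far these genes depend on the arrays used.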

Other observations

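Several housekeeping and signalling groups lay close to DMSO under every agonist. Of 34 genes of oxidative phosphorylation, Ndufa2 stood higher and Ndufa4 lower in all 6 differences (2.94% each, beside 6.27% and 6.71% of all clusters). Their pooled changes were 0.10 ± 0.12 (SE) and -0.09 ± 0.11 (SE), and the list median was -0.02. Ndufa2 lost its common sign under both other scalings. Of 24 genes of the T cell receptor complex and its signalling, pooled changes ran from -0.13 to 0.07. In all 6 differences Cd247, Lat and Cd3d stood lower, Lat and Cd3d only without quantile normalization, and none stood higher. The share lower was 12.5%, beside 6.71% of all clusters. Of 28 S phase genes, Slbp, which binds histone mRNA, had a pooled change of -0.22 ± 0.12 (SE), and the list median was 0.01.

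Early response and cytokine receptor genes had members of both signs, more of them lower than higher in all 6 differences. The ATF4 stress response had 3 higher and 2 lower of 23 (13.0% and 8.70%), and the unfolded protein response had 1 of each. Of 26 early response genes, 1 stood higher in all 6 differences and 3 lower (3.85% and 11.5%, beside 6.27% and 6.71% of all clusters). Ier3 stood higher, with 0.33 ± 0.16 (SE). Atf3 and Nfkbiz were among those lower, with -0.31 ± 0.14 (SE) and -0.27 ± 0.14 (SE), Atf3 only without quantile normalization. Of 25 cytokine receptors, 1 stood higher in all 6 differences and 4 lower, and with quantile normalization 1 stood higher and 3 lower. Il21r stood higher, with 0.16 ± 0.11 (SE). Ifngr2, a chain of the interferon gamma receptor, was among those lower, with -0.23 ± 0.12 (SE). None of these passed limma's pooled test, where their adjusted p-values ran from 0.9652 upward.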
